A study of Mus musculus with 33 samples.

Results

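The cells described here were Il1b-rich neutrophils with Acod1 or Ccrl2, taken from 4 mouse tissues by a rule on raw UMI counts, where a UMI stands for 1 captured RNA molecule. A member had at least 5 UMIs of Il1b, at least 1 of Csf3r, at least 1 of Acod1 or Ccrl2, fewer than 5 of Ltf, and 0 of Cd79a, H2-Ab1 and C1qa. The rule found 8461 members among 55366 kept cells of the 32 samples. A cell was kept when it had 500 or more gene UMIs, 200 or more genes and no more than 15% of UMIs from mitochondrial genes, as 55366 of 57065 barcodes did. The members were thus chosen by their UMIs of Il1b, Csf3r, Acod1, Ccrl2, Ltf, Cd79a, H2-Ab1 and C1qa, so the levels of these genes are descriptions and were not tested.

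The study used SAMENT, a sortase-based tagging method in which tumour cells mark their neighbours with biotin. All 8 groups carried the label of an intracardiac injection, and each tissue (bone, brain, liver or lung) was split by sorting into biotin positive and biotin negative cells, with 4 samples per group. The sources used here do not give the mouse strain, age, tumour line or number of animals behind a sample. All groups, biotin negative ones included, carried the same injection label. Nothing in the labels says that samples of a group came from separate mice, so p-values measure the spread between samples only.

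Neutrophils are short-lived granulocytes that leave the marrow, circulate and enter tissues on chemokine signals. Inflammatory stimuli acting through NF-kB switch on Il1b, the gene of interleukin-1 beta, and Cxcl2, whose product attracts further neutrophils through the receptor Cxcr2. Acod1 makes itaconate, a metabolite that restrains inflammation, Ccrl2 is a non-signalling chemerin receptor, and Csf3r is the receptor for the granulocyte growth factor G-CSF. Nfkbia encodes an inhibitor that NF-kB induces to shut itself off, and Dusp1 a phosphatase that switches off MAP kinases. On GRCm38, Il1b lies at chr2:129364570-129371139, Acod1 at chr14:103046977-103056573, Ccrl2 at chr9:111054486-111057519 and Csf3r at chr4:126024550-126044440.

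The promoters of Cxcl2, Nfkbia and Dusp1 are shown because these genes were called between tissues below and, in a scan of 16 genes, held a motif match. The sequences are RefSeq windows of build GRCm38.p6 that begin 250 bases before the annotated start, written in the gene's own direction, with capitals marking motif matches. For Cxcl2 and Dusp1 the last 50 bases before the start were left out. The Cxcl2 window is chr5:90903649-90903848 on the plus strand, the Nfkbia window is chr12:55492648-55492897 on the minus strand, and the Dusp1 window is chr17:26508523-26508722 on the minus strand.
Cxcl2: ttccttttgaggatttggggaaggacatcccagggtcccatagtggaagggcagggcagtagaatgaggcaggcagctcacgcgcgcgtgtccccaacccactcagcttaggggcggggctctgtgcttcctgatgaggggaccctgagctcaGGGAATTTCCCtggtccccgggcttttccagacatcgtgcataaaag
Nfkbia: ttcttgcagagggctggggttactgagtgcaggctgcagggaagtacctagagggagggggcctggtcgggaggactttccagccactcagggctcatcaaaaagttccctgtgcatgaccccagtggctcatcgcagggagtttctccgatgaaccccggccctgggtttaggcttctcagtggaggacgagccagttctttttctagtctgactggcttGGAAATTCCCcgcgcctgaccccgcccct
Dusp1: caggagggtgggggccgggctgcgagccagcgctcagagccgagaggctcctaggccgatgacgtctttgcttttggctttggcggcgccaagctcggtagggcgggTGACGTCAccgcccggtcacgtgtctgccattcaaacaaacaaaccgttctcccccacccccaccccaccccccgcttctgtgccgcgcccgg
In the GENCODE vM21 annotation of the same build, Cxcl2 spans chr5:90903871-90905938 and Nfkbia chr12:55489410-55492647, so both windows lie upstream of the gene. Dusp1 spans chr17:26505590-26562128, and its window lies within that span because GENCODE lists a transcript that starts further upstream. The capitals in Cxcl2 and Nfkbia match the NF-kB consensus on either strand, and in Cxcl2 they join 2 overlapping matches. The capitals in Dusp1 spell the cAMP response element TGACGTCA. Over all 32851 RefSeq windows, cut to the same 250 bases, 7.25% held the NF-kB consensus and 1.55% held TGACGTCA. Of the 16 genes scanned, 6 held an NF-kB match in at least 1 window (Cxcl2, Nfkbia, Cxcl3, Tnfaip3, Ccrl2 and Csf3r) and 2 held TGACGTCA (Dusp1 and Ppp1r15a). Il1b, Acod1, G0s2, Pim1, Per1, Ptgs2, Gadd45b and Csrnp1 held neither, which says only that these letters are not in these bases. Among the genes called higher in liver below, 8 of the 53 with a window held the NF-kB consensus (15.1%) and 5 held TGACGTCA (9.43%); in lung 4 of 22 held each. Of 5674 tested genes with a window, 10.9% and 3.40% did. Ppp1r15a was also called between tissues and held a match, but its promoter is not shown. The 3 promoters were picked after the scan, so the matches are descriptions.

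The label was checked against markers. S100a8, which encodes a calgranulin that fills the neutrophil cytosol, was detected in 99.9% of members, Retnlg in 94.4% and the chemokine receptor gene Cxcr2 in 87.8%. Of 14 neutrophil markers, Ly6g was detected least, in 39.5% of members, followed by Stfa2l1 in 67.5% and Mmp8 in 76.2%. The median of S100a8 was 92981 CPM in members and 47773 CPM over all kept cells. Members carried a median of 34 UMIs of Il1b, with a range of 5 to 361. Acod1 alone qualified 34.1% of members, Ccrl2 alone 18.6%, and 47.3% had both. At the edge of the rule, 179 members had exactly 5 UMIs of Il1b, and 187 cells with 4 UMIs passed every other condition. Cxcl2, which the rule did not use, stood at 7078 CPM (UMI counts scaled to the same total in every population) in the former and 6531 in the latter, against 20450 CPM over all members.

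Not every member had a neutrophil profile. A set of 616 members, 7.28%, carried more than 20 UMIs per 10000 of 8 monocyte genes (Ly6c2, Ccr2, Csf1r, Fn1, F13a1, Vcan, Ms4a6c and Ms4a4c). These monocyte-rich members had Cxcr2 in 30.4% of cells and a median of 8398 UMIs, while the other 7845 had Cxcr2 in 92.3% and a median of 3568 UMIs. The limit of 20 was set after seeing the data, and 283 members lay between 10 and 20 and 111 between 20 and 40. Monocyte-rich members made up 40.8%, 36.2%, 27.7% and 2.72% of the members in the 4 biotin negative bone samples, and 47.7% in biotin negative lung replicate 3. In the other samples they ranged from 0% to 21.4%. Whether these are monocytes that pass the rule, doublets or RNA from other cells was not tested, and each result below is given without them where the call changes.

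Markers of other cell types were summed per sample. Summed over each list, markers of erythroid, basophil or mast, endothelial and lung epithelial cells stayed at or below 51.2 CPM in every sample of members, and the B cell list at or below 439 CPM. Sall1, a defining microglial gene, was at 0 in all members. The highest sums of other lists were 582 CPM for platelets, 486 for NK cells, 432 for T cells, 3426 for macrophages, 7037 for monocytes and 20179 for granulocyte precursors. The summed level of 8 alveolar macrophage genes ran from 661 to 23046 CPM in biotin positive lung, against 339 to 4753 in the other groups. Chil3, which is on the alveolar macrophage and the granulocyte precursor list, reached 19538 CPM on its own. Il1b itself was widespread: of 5588 B cells, taken as cells with at least 2 UMIs of Cd79a, 16.7% had an Il1b UMI and 3.24% had 5 or more, at a median depth of 2423 UMIs against 3715 in members. The share of B cells with 5 or more was highest in biotin positive lung, at 12.7%, and biotin positive bone, at 11.8%. No doublets were removed.

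The levels of inflammatory genes in members are set beside those of other neutrophils and described without a test, because the rule chose the members. The 7618 comparison neutrophils had Csf3r, at least 10 UMIs of S100a8 and S100a9 together, the same limits on Ltf and the 3 zero genes, and were not members. By the median over samples, all 11 granulocyte precursor markers were higher in comparison cells than in members (Top2a 87.6 against 5.21 CPM, Prtn3 285 against 53.9). Of 14 monocyte markers, 9 were higher in comparison cells (Ly6c2 760 against 241 CPM, Fn1 689 against 195) and 5 in members (Nr4a1 357 against 204, Csf1r 82.7 against 66.1). The summed monocyte list had the higher median in comparison cells in 7 of 8 groups, the exception being biotin negative bone with 5287 CPM in members and 4007 in comparison cells. The part of this RNA in the levels below was not tested, but ratios without monocyte-rich cells are given for the leading genes named. Over the 30 samples with enough of both, Cxcl2 averaged 17855 ± 8574 CPM (SD) in members and 4869 ± 4325 in comparison neutrophils. The neutrophil attractant Cxcl3 averaged 437 ± 371 against 125 ± 199 CPM. Ptgs2, the inducible enzyme of prostaglandin synthesis, averaged 384 ± 164 against 92.1 ± 112 CPM. Each of these was higher in members in 29 or 30 of 30 samples. The ratio of members to comparison neutrophils, with 10 CPM added, was 3.66 for Cxcl2, 3.31 for Cxcl3 and 3.86 for Ptgs2. Without monocyte-rich cells these ratios were 2.70, 2.88 and 3.31.

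Feedback regulators of NF-kB were also among the leading genes. Nfkbia averaged 2108 ± 960 CPM in members and 643 ± 423 in comparison neutrophils, Nfkbiz 957 ± 339 and 264 ± 205, and Tnfaip3 290 ± 161 and 90.5 ± 87.0. Among sensors, the LPS co-receptor gene Cd14 averaged 2519 ± 1089 against 937 ± 757 CPM, the inflammasome sensor Nlrp3 277 ± 114 against 98.3 ± 68.2, and the C-type lectin gene Clec4e 1047 ± 278 against 395 ± 276. G0s2, an inhibitor of triglyceride breakdown, averaged 2973 ± 1499 against 963 ± 952 CPM. Without monocyte-rich cells the ratio, formed as above, fell for Nfkbia (3.24 to 2.88), Nfkbiz (3.53 to 2.66) and Tnfaip3 (2.99 to 2.44). It also fell for Cd14 (2.67 to 2.39), Clec4e (2.61 to 2.16) and G0s2 (3.07 to 2.20), and rose for Nlrp3 (2.65 to 2.76). At the other end were ribosomal protein genes such as Rps18, at 627 ± 485 against 1913 ± 874 CPM and lower in members in 30 of 30 samples, and Camp, a granule gene of maturing cells, at 222 ± 523 against 1075 ± 1734 CPM, though Camp was higher in members in 8 of 30 samples. Depth differed: the median UMIs per sample ran from 1990 to 10696 in comparison neutrophils and from 2790 to 6068 in members, and the part of depth in these levels was not tested.

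**Figure D1:**
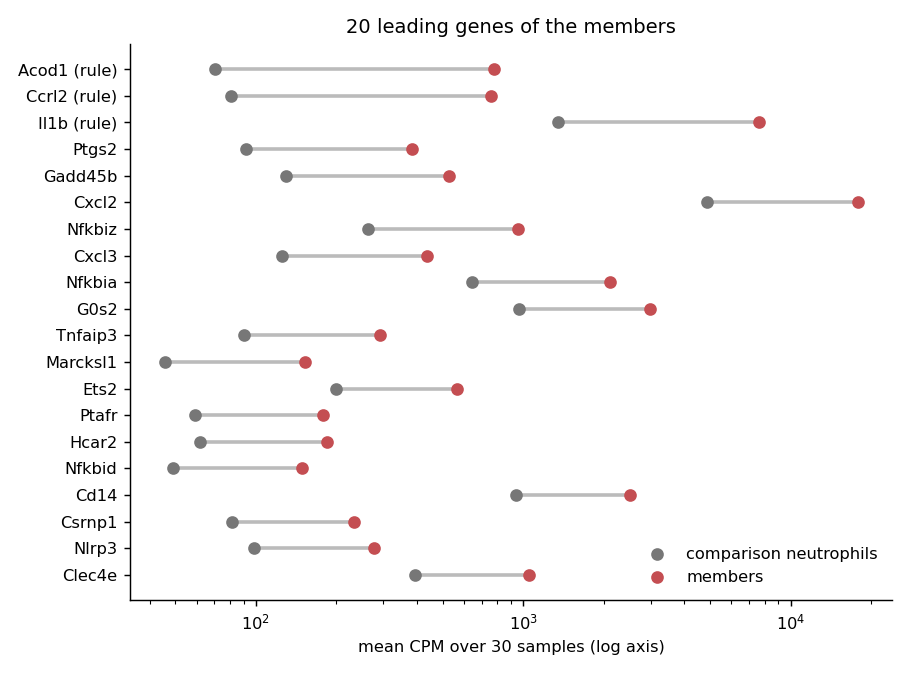
Mean CPM (log axis) of the 20 leading genes in members (red) and comparison neutrophils (grey) over 30 samples; genes marked "rule" chose the members. Cxcl2 has the highest mean in both populations, 17855 in members and 4869 in comparison neutrophils.

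Members differed in number by tissue. Among kept cells of the biotin negative samples, bone held 4.39%, 4.09%, 3.39% and 5.25% members in replicates 1 to 4. Liver held 8.94%, 27.0%, 8.74% and 33.0%, and lung 26.1%, 44.1%, 6.79% and 37.7%. Brain held 3.71%, 25.7%, 10.6% and 16.8%. Every liver and lung sample was above every bone sample, whereas brain replicate 1 lay within the bone range. Liver minus bone was 15.1 percentage points and lung minus bone 24.4, each with an exact permutation p of 0.0286, the smallest that 4 against 4 samples can give, and 0.0343 after adjustment over 6 comparisons. Brain minus bone was 9.90 points with an exact permutation p of 0.114. Leaving out any 1 bone sample ended the call for liver, with exact permutation p values of 0.0857 to 0.114, and for lung, with 0.0571 each time. Without brain replicate 1 the brain difference had an exact permutation p of 0.0286. Without monocyte-rich cells, lung minus bone was 22.9 points with an exact permutation p of 0.0571.

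The same shares were taken among gated neutrophils, which are members plus comparison neutrophils. This denominator differed by tissue. Granulocyte precursor markers of biotin negative comparison neutrophils summed to a median of 13053 CPM in bone. The sums were 9454 CPM in brain, 6463 in liver and 5425 in lung. Biotin negative bone held 15.8 ± 5.12% members (SD, n = 4, range 11.3 to 21.9%), brain 45.7 ± 16.03%, liver 55.3 ± 15.7% and lung 74.0 ± 17.4%. No brain, liver or lung sample overlapped the bone samples; the lowest were 24.3%, 41.2% and 50%. The 3 differences, 29.9, 39.6 and 58.2 points, each had an exact permutation p of 0.0286 and an adjusted p of 0.0343. Leaving out any 1 bone sample gave an exact permutation p of 0.0571 for brain and 0.0286 for liver and lung. The tissue sample was higher in 4 of 4 same-numbered pairs for each tissue, and a paired exact test gave p = 0.125, the smallest two-sided p that 4 pairs can give; the same p held for liver and lung among kept cells. These 6 comparisons share the same 4 bone samples and were added after the ranges had been seen. Brain, liver and lung overlapped one another. With each cell thinned to 1000 UMIs and the rule set to 2 UMIs of Il1b, the shares were 5.72 to 16.5% in bone, 20.7 to 42.8% in brain, 37.3 to 57.2% in liver and 41.7 to 73.2% in lung.

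**Figure D2:**
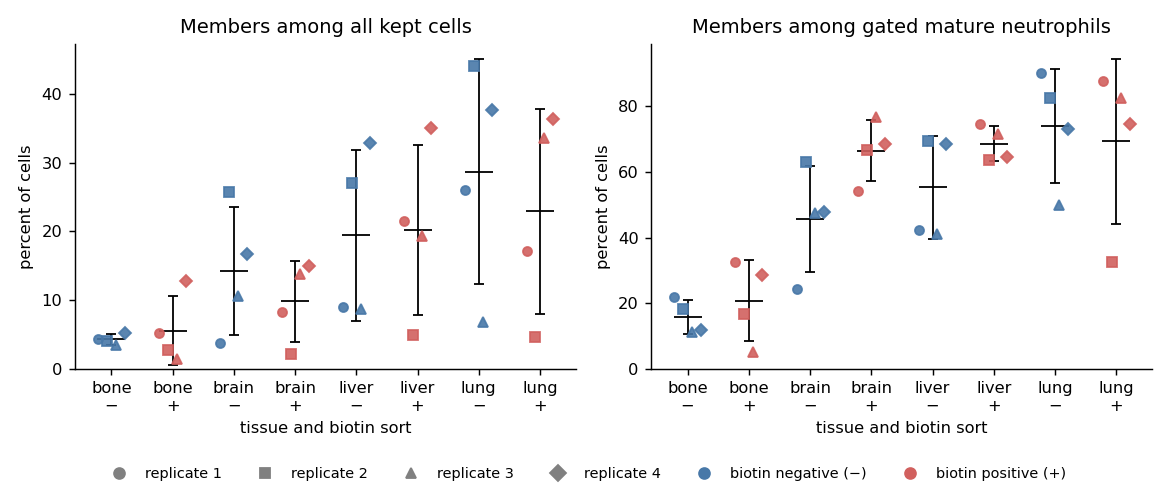
Percent of members among all kept cells (left) and among members plus comparison neutrophils (right) in each of 32 samples; bars are mean ± SD of 4 samples. Biotin negative bone samples lie between 11.3% and 21.9% on the right, below all brain, liver and lung samples of the same sort.

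The biotin sort asks whether neutrophils beside tumour cells were more often of this kind. Among kept cells, biotin positive bone held a mean of 5.56% members and biotin negative bone 4.28%. The same means were 9.81% and 14.2% for brain, 20.2% and 19.4% for liver, and 23.0% and 28.7% for lung. The positive and negative samples overlapped in each tissue, and the exact permutation p values were 0.857, 0.457, 0.971 and 0.571. The differences were smaller than the spread between samples: in lung alone the positive samples ranged from 4.59% to 36.4%.

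Among gated neutrophils, the biotin difference with the lowest p was in brain. Biotin positive brain held 54.1%, 66.7%, 76.8% and 68.5% members, and biotin negative brain 24.3%, 63.2%, 47.3% and 47.8%. The positive sample was higher in 4 of 4 same-numbered pairs and by 20.9 points on average, but the groups overlapped, and the exact permutation p was 0.0571 and 0.229 after adjustment over the 4 tissues. A paired exact test gave p = 0.125, the smallest two-sided p that 4 pairs can give. Biotin positive brain replicate 2 rests on 14 members and 7 comparison neutrophils. With cells thinned to 1000 UMIs the difference was 26.5 points with an exact permutation p of 0.0286. For the other tissues the positive and negative means were 20.8% and 15.8% (bone), 68.7% and 55.3% (liver), and 69.4% and 74.0% (lung), with exact permutation p values of 0.486, 0.229 and 0.714.

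Gene levels within members were compared on counts summed per sample, using edgeR's quasi-likelihood test across 7049 genes. Biotin positive bone replicate 3, with 9 members, was dropped, which left 31 samples. For the biotin contrast, edgeR called 0 genes (0%) at an adjusted p under 0.05 for each tissue. At an unadjusted p under 0.05 there were 480 genes for bone, 364 for brain, 94 for liver and 300 for lung. DESeq2 called 2, 0, 0 and 2 genes. The groups did not overlap for 6.58%, 5.9%, 2.26% and 1.33% of genes in the same order. For the mean biotin difference over the 4 tissues edgeR called 0 genes, with 841 at an unadjusted p under 0.05, and DESeq2 called 113. Same-numbered samples deviated together in bone, brain and liver but in only 2 of 4 pairs in lung. For lung the block is an alternative setting, and it gave calls there, which the closing section counts. For the 3 paired tissues a fit that held the number constant as a block gave 0 called genes with edgeR in each of them and 206 for the mean over all 4 tissues, lung included (2.92%), 16 higher and 190 lower. With the block and without monocyte-rich members the mean difference had 0 calls. In simulated data of the lung comparison, edgeR recovered 93.9% of genes changed 4-fold and 26.5% of those changed 2-fold; the other comparisons were not simulated.

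The level of Cxcl2 is given by sample for liver and bone. In liver its level was 24432, 29022, 29498 and 28370 CPM in biotin positive members and 21644, 25690, 24208 and 30174 CPM in negative ones. In bone it was 7423, 8475 and 17093 CPM in the 3 positive samples and 3480, 5753, 5058 and 6559 CPM in the negative ones. The bone groups did not overlap, and the log2 fold change of 1.19 ± 0.40 (SE) had an edgeR adjusted p of 0.658. In the same bone comparison G0s2 differed by 1.23 ± 0.45 on the log2 scale, with an edgeR adjusted p of 0.658.

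Of the genes on 16 pathway lists, edgeR without the block called 0 between sorts in any tissue. With the replicate block, the mean over tissues had calls such as Hcar2, Egr1 and Cd9 (higher) and Lyz2 and Ctsc (lower). None of them was called without monocyte-rich members. They are examples from the calls of that fit given above, most of which were lower, and are not a result about the lists as sets. The median log2 fold change of the 20 tested NF-kB targets and feedback genes was 0.20, 0.05, 0.12 and -0.03 for bone, brain, liver and lung, beside medians over all genes of -0.09, -0.12, -0.04 and 0.01. Interferon-stimulated genes had the highest list median for bone, brain and liver, at 0.63, 0.45 and 0.28, with 0 of 15 called; for lung the 17 genes named in tumour-associated neutrophils did, at 0.53, with 0 called. Stress and immediate early genes had medians of 0.54, 0.26, 0.07 and -0.02. Without monocyte-rich members the interferon medians were -0.05 in bone, 0.40 in brain and 0.25 in liver, and in bone the azurophil granule list had 0.91 and the stress list 0.43.

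Markers of alveolar macrophages are given by sample for lung members, where edgeR without a replicate block called 0 genes between sorts. Plet1, an alveolar macrophage marker, was at 372, 698, 16.3 and 0.868 CPM in biotin positive members and at 13.1, 13.1, 0 and 0.420 CPM in negative ones. Lpl, the lipoprotein lipase gene that these macrophages express, was at 500, 1077, 53.4 and 0 CPM against 28.0, 32.01, 8.37 and 0.630 CPM. Both were highest in positive replicates 1 and 2, the groups overlapped, and the edgeR adjusted p was 0.156 for Plet1 and 0.214 for Lpl. Without monocyte-rich members, an alternative added after seeing the data, 27 genes were called (0.503% of 5371), all 27 higher in biotin positive lung. Of the 8 alveolar macrophage markers, Plet1 and Siglecf, which is also an eosinophil marker, were among the 27, and Ear1, Ear2, Fabp1, Marco, Chil3 and Krt79 were not. The part of alveolar macrophage RNA in the 27 calls was not tested. With all members, monocyte-rich ones included, 58 genes were called when positive replicate 4 was left out and 17 when replicate 3 was.

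The tissues were compared in biotin negative members, with bone as the reference. Biotin negative liver against biotin negative bone gave 210 called genes (2.98%), 74 higher (1.05%) and 136 lower (1.93%). Lung against bone gave 77 (1.09%), 28 higher (0.397%) and 49 lower (0.695%). Of these, 188 and 68 did not overlap between groups, beside 12.4% and 5.19% of all genes tested and 4.24% for brain against bone. Brain against bone gave 0 with edgeR and 0 with DESeq2, with 736 genes at an unadjusted p under 0.05. These 3 comparisons share the bone samples. Same-numbered samples deviated together in all 3, and in the fit with that block edgeR called 30 genes for brain (0.426%), 14 of them higher (0.199%), 1099 for liver (15.6%), 321 higher (4.55%) and 778 lower (11%), and 203 for lung (2.88%), 101 higher (1.43%) and 102 lower (1.45%). With the block and without monocyte-rich members the calls were 6 (0.112%), 73 (1.36%) and 112 (2.09%), of which 5 (0.0931%), 61 (1.14%) and 77 (1.43%) were higher. Leaving out 1 sample at a time without the block gave 26 to 701 calls in liver, fewest without bone replicate 1 and most without bone replicate 4, and 14 to 133 in lung, fewest without lung replicate 2 and most without lung replicate 3. Il1b, which chose the members, averaged 3755 ± 721 CPM for biotin negative bone, 5517 ± 1193 for brain, 8735 ± 3733 for liver and 9659 ± 4565 for lung, and the part of this difference in the gene calls was not tested.

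Cxcl2 and Osm were among the higher genes. Cxcl2 in biotin negative members was at 3480, 5753, 5058 and 6559 CPM in bone, at 21644, 25690, 24208 and 30174 CPM in liver, and at 18859, 23624, 13157 and 24359 CPM in lung. Every liver and lung sample was above every bone sample. The log2 fold change was 2.41 ± 0.39 in liver (edgeR adjusted p = 0.00207) and 1.98 ± 0.39 in lung (edgeR adjusted p = 0.00725). In brain Cxcl2 was at 6036, 16333, 13040 and 15854 CPM, which overlapped bone (log2 fold change 1.44 ± 0.38, edgeR adjusted p = 0.239), but with the replicate block it was called (edgeR adjusted p = 0.0214; 0.194 also without monocyte-rich members). Of the 12 tested chemokine and receptor genes, Cxcl2 was the only 1 called in liver and in lung. The calls over all 7049 tested genes were 210 and 77. The list's median log2 fold change was 0.53 in liver and 0.52 in lung. With the block, Cxcl3 was called as well in lung.

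Osm encodes oncostatin M, a cytokine of the interleukin-6 family that neutrophils release. It was at 267, 261, 112 and 244 CPM in bone and at 1176, 750, 516 and 1614 CPM in liver, with no overlap. The log2 fold change was 2.34 ± 0.44 in liver (edgeR adjusted p = 0.00449) and 1.10 ± 0.42 in lung (edgeR adjusted p = 0.319). Osm was the only 1 of 16 tested secreted mediators called in liver; with the block Il6, Lgals3 and Thbs1 were also called, as lower, but not without monocyte-rich members. Among 11 tested genes of the interleukin-1 family and inflammasome, Casp4, a caspase that senses cytosolic LPS, was higher in liver (1.41 ± 0.31, edgeR adjusted p = 0.0114). Il1rn, the interleukin-1 receptor antagonist gene, was higher in lung (1.04 ± 0.27, edgeR adjusted p = 0.0446). Beside these list counts, 74 of all 7049 tested genes were higher in liver and 28 in lung. Neither Casp4 nor Il1rn was called without monocyte-rich members. With the replicate block the list had 3 higher and 2 lower in liver and 3 higher in lung, beside 4.55%, 11% and 1.43% of all genes. With the block and without monocyte-rich members, Casp4 was called in liver and lung and Il1rn in lung (edgeR adjusted p = 0.0148, 0.0171 and 0.0330), and Il1rap, a subunit of the interleukin-1 receptor, was called in lung.

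Stress and immediate early genes were called in liver and lung. In liver 6 of 25 were higher and 0 lower (Dusp1, Zfp36, Junb, Fos, Ppp1r15a and Ier5), and in lung 2 of 25 were higher (Dusp1 and Ppp1r15a), beside 1.05% and 0.397% of all tested genes higher. The list's median log2 fold change was 1.09 in liver, 0.89 in lung and 0.63 in brain, where none was called, beside medians over all genes of -0.15, -0.10 and -0.13. With the block the list had 16 higher and 1 lower in liver, 10 higher in lung and 2 higher in brain (Dusp1 and Klf2), beside 4.55%, 1.43% and 0.199% of all genes higher in that fit. Without monocyte-rich members as well, 12, 9 and 1 were higher and 0 lower, beside 1.14%, 1.43% and 0.0931% higher.

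Dusp1 was at 878, 1222, 934 and 1675 CPM in bone and at 4114, 5816, 2818 and 5403 CPM in liver. In lung it was at 2497, 3575, 1900 and 4294 CPM. Neither tissue overlapped bone, and the log2 fold change was 2.07 ± 0.35 in liver (edgeR adjusted p = 0.00207) and 1.43 ± 0.34 in lung (edgeR adjusted p = 0.0273).

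Zfp36 encodes tristetraprolin, which destabilises cytokine mRNAs. It was at 802, 894, 672 and 912 CPM in bone and at 3085, 2946, 1411 and 2592 CPM in liver (log2 fold change 1.73 ± 0.31, edgeR adjusted p = 0.00268). In lung it had 0.82 ± 0.30 with an edgeR adjusted p of 0.279. Ppp1r15a, which restarts translation after stress, rose in both tissues, by 1.43 ± 0.29 in liver and 1.60 ± 0.29 in lung (edgeR adjusted p = 0.00682 and 0.00532).

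NF-kB feedback was represented by Nfkbia. It was at 1231, 1211, 1180 and 768 CPM in bone, at 3962, 2483, 1651 and 2702 CPM in liver, and at 3221, 2283, 1699 and 2032 CPM in lung. Neither tissue overlapped bone, and the log2 fold change was 1.42 ± 0.29 in liver (edgeR adjusted p = 0.00728) and 1.12 ± 0.29 in lung (edgeR adjusted p = 0.0439). Of 20 tested genes of the NF-kB list, Nfkbia, Nfkbiz and Birc3 were higher in liver, and Nfkbia alone in lung. Over all 7049 tested genes, 74 were higher in liver and 28 in lung. Without monocyte-rich members Nfkbiz and Birc3 were no longer called. With the block 5 of 20 were higher and 2 lower in liver, beside 4.55% and 11% of all genes, and 3 were higher in lung, beside 1.43%. Without monocyte-rich members as well, 3 and 4 of 18 were higher, beside 1.14% and 1.43% of all genes, and 0 lower, with Nfkbia, Birc3 and Tnfaip3 called in both tissues. Map3k8, a kinase upstream of ERK, was higher in liver (1.28 ± 0.21, edgeR adjusted p = 0.00207) and had 0.49 ± 0.21 in lung (edgeR adjusted p = 0.419).

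G0s2, Hcar2, Per1 and Per2 were also among the genes called higher. G0s2 was at 863, 951, 865 and 1163 CPM in bone, at 3716, 2212, 2946 and 5322 CPM in liver, and at 5065, 3406, 1672 and 4097 CPM in lung, with no overlap. Hcar2, a receptor for nicotinic acid and ketone bodies, differed by 1.82 ± 0.38 in liver and 1.63 ± 0.38 in lung (edgeR adjusted p = 0.00939 and 0.0247). Without monocyte-rich members neither G0s2 nor Hcar2 was called in liver or lung. The genes called higher with all members, 74 in liver and 28 in lung, all kept their sign there. With the block as well, G0s2 and Hcar2 were called in lung but not in liver. The clock genes Per1 and Per2 were higher in both tissues, and with the block also in brain (edgeR adjusted p = 0.0106 for each). Per2 was low, at 1.13, 5.44, 2.12 and 1.12 CPM in bone against 14.5, 26.9, 13.3 and 29.7 CPM in liver and 19.0, 36.3, 14.3 and 35.3 CPM in lung.

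**Figure D3:**
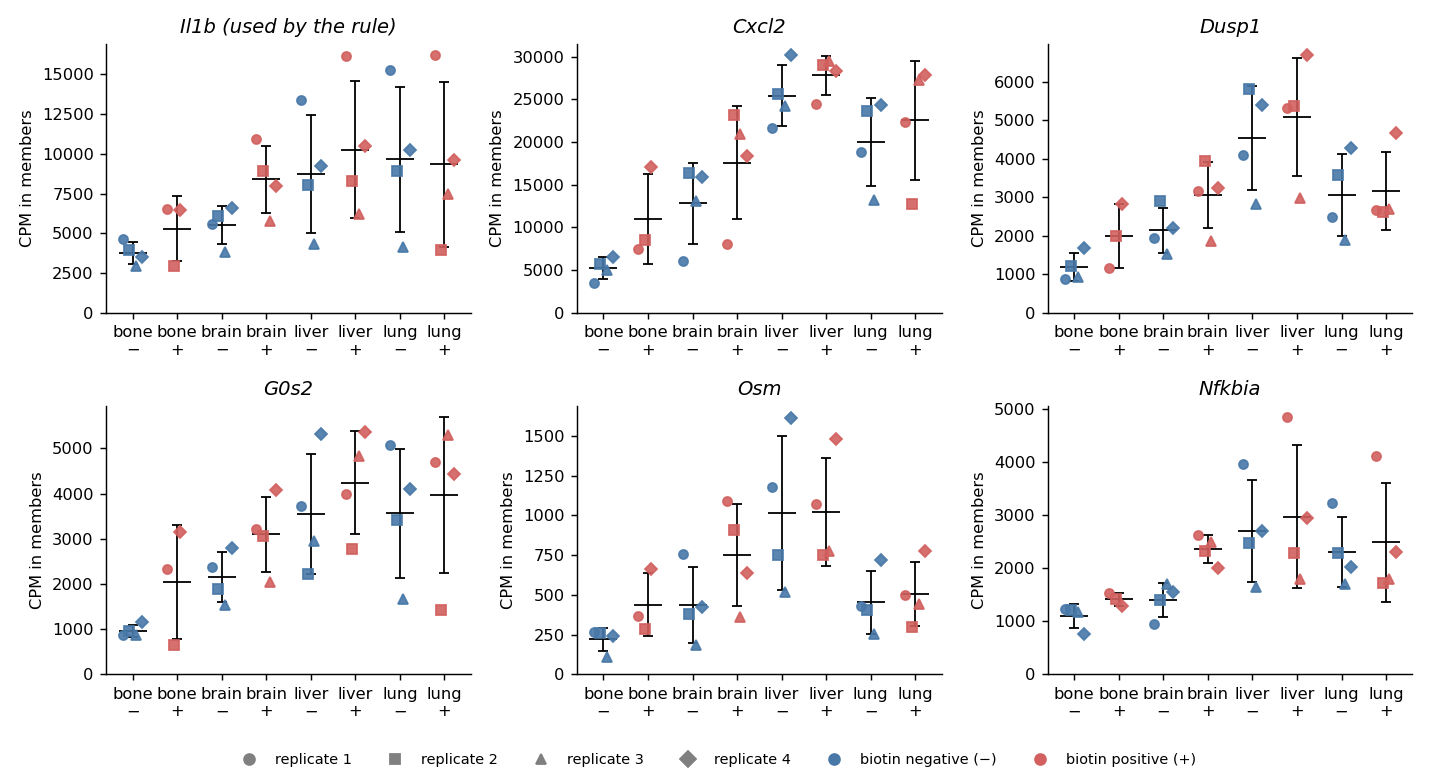
CPM of 6 genes in members of each sample; bars are mean ± SD of 4 samples, or of 3 in biotin positive bone, where replicate 3 had 9 members. Il1b chose the members and is shown as a description; Cxcl2, Dusp1, G0s2 and Nfkbia are higher in every biotin negative liver and lung sample than in any biotin negative bone sample, and Osm in every liver sample.

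Top2a, a topoisomerase of dividing cells, was among the genes lower in liver and in lung. It was at 136, 111, 53.0 and 43.8 CPM in bone, at 0.806, 3.02, 2.95 and 6.22 CPM in liver, and at 1.73, 2.36, 3.59 and 5.67 CPM in lung. In biotin negative bone, 96.3% of the UMIs of 8 cycle genes in members came from monocyte-rich members.

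Leaving out monocyte-rich members left fewer calls. In liver 24 genes were then higher (0.447% of 5371) and 2 lower (0.0372%), and in lung 19 higher (0.354%) and 3 lower (0.0559%). Of the 74 genes higher in liver, 20 were called again, and 74 of 74 kept their sign with a median log2 fold change of 0.96 beside 1.21. Of the 28 higher in lung, 15 were called again, and 28 of 28 kept their sign with a median log2 fold change of 1.28 beside 1.36. Of the 136 lower in liver, 0 were called again, and 66 still had enough counts to be tested, of which 52 kept their sign. Of the 49 lower in lung, 9 could still be tested, 1 was called again and 6 kept their sign. The median log2 fold change of those 9 was -0.26 beside -1.79. With the block added, 12 genes were lower in liver and 35 in lung. Cxcl2 (2.04), Dusp1 (1.83), Zfp36 (1.78), Osm (2.16), Nfkbia (1.60), Map3k8 (1.64), Ppp1r15a (1.81) and Pim1 (1.22) stayed called in liver, with these log2 fold changes.

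**Figure D4:**
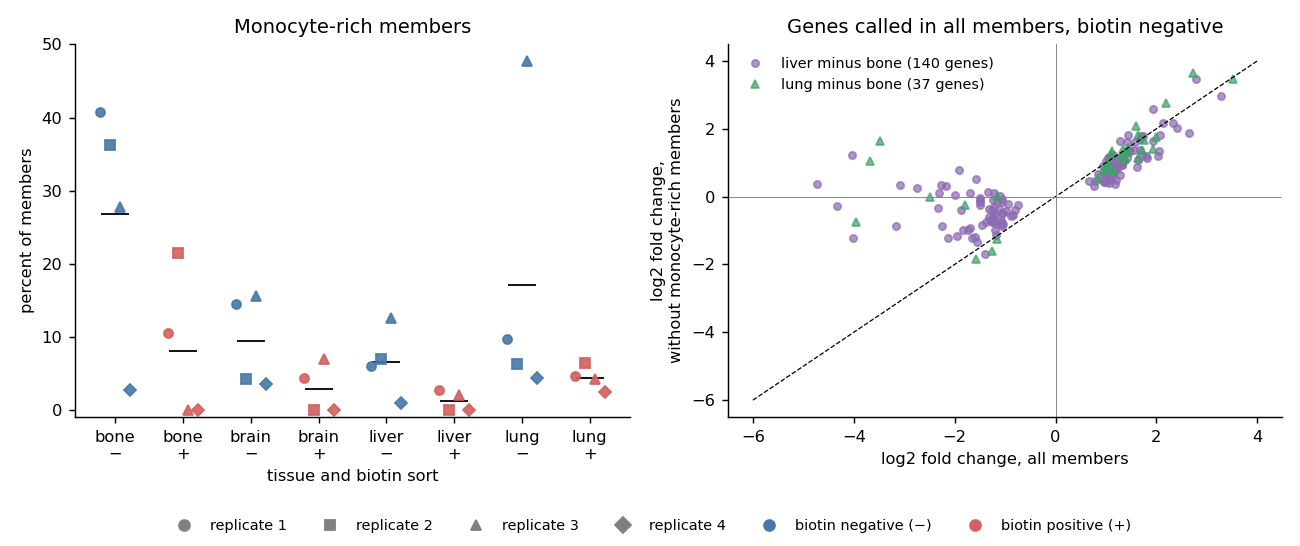
Left, percent of members that were monocyte-rich in each sample, with a line at the mean of 4. Right, log2 fold change of the called genes with all members (x axis) and without monocyte-rich members (y axis), for the 140 liver and 37 lung genes with enough counts in both; the 74 genes higher in liver stay above 0 and the median of the lower ones moves from -1.33 to -0.45.

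Granule and maturity genes gave few calls. Of 15 tested specific and gelatinase granule genes and 7 azurophil granule genes, 0 were called in liver or lung. The calls over all 7049 tested genes were 210 in liver and 77 in lung. With the block Prtn3, Cybb and Lyz2 were lower in liver; without monocyte-rich members as well, they were not called, and Serpinb1a and Ngp were lower in lung. The median log2 fold change of the azurophil list was -0.48 in liver and -0.84 in lung, and of the specific granule list 0.07 and -0.30. Retnlg averaged 27548 ± 10664 CPM in bone, 29820 ± 7532 in liver and 20889 ± 8759 in lung, and the samples overlapped. Of 14 tested genes of the maturity and circulation list, Dusp1 was the only 1 called in both. Cd274, the gene of PD-L1, averaged 11.3 ± 4.99 CPM in bone, 14.5 ± 11.2 in liver and 29.6 ± 14.5 in lung, and none of the 8 comparisons called it without the block; with the block it was higher in lung (log2 fold change 1.48, edgeR adjusted p = 0.0498, and 0.0171 also without monocyte-rich members). Hcar2 was the only called gene of the 17 tested on the list of tumour-associated neutrophils, and with the block Rab20 was higher too in liver and lung.

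Whether these tissue differences belonged to members was tested against comparison neutrophils in a fit with sample as a term, over 8960 genes and 30 samples. The mean of brain, liver and lung minus bone, all biotin negative, differed between members and comparison neutrophils for 103 genes (1.15%), 7 with a higher value in members (0.0781%) and 96 with a lower one (1.07%). The difference of differences was -0.60 ± 0.55 for Cxcl2 (edgeR adjusted p = 0.675), -0.35 ± 0.44 for Dusp1 (0.779), -0.50 ± 0.45 for Osm (0.666) and 0.01 ± 0.47 for Nfkbia (1.00), so the tissue differences of these genes were not shown to be particular to members. The 96 were led by Cd83 and Nr4a2. They held 3 of the 12 tested macrophage markers (Adgre1 and Cd68 among them), 3 of the 14 monocyte markers (Csf1r, Ctss and Nr4a1), and 0 of the 13 neutrophil and 10 granulocyte precursor markers. Without monocyte-rich cells on either side, 5 genes were called (0.0635% of 7868), and Cd83 and Nr4a2 were not among them. For the mean biotin difference the same fit called 0 genes, with 1233 at an unadjusted p under 0.05. Without monocyte-rich cells it called 70 (0.890%), 62 of them higher in members. Among the 62 were Egr3, Socs3, Map3k8, Birc3 and Csrnp1, and also the immunoglobulin gene Igkc, which is on the B cell marker list.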

How the data were processed

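UMI counts by gene and barcode were deposited by the authors. Per the labels' protocols all tissues were minced and digested with collagenase A. Per the file headers the matrices were written by Cell Ranger 6.1.2, and per the submitters' processing notes reads were placed on mm10. No source used here gives the annotation or whether intronic reads were counted. The 32 matrices held 32285 genes; 8 tag rows per matrix were left out, and the pooled IIA bone matrix was not used here. Total counts per sample ran from 497940 to 44874529. Libraries of 1 replicate number shared 0 kept barcodes, and pairs with different numbers shared 325 in all. The labels do not say what a replicate number marks, so pairing was taken from the data: deviations of same-numbered samples from their group means correlated across genes at 0.188 to 0.651 in every pair of each tissue against bone and of the biotin comparison in bone, brain and liver, but at -0.247 to 0.652 for biotin in lung, which was left unpaired. The fit with the number as a block is given where it changes a call or a count. The members and gene lists were chosen with earlier results of these data known.

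Member counts were summed per sample with at least 10 members and tested with edgeR 4.0.16 (TMM, filterByExpr, quasi-likelihood, all groups in 1 fit, Benjamini-Hochberg adjustment, 0.05), checked on simulated data. DESeq2 1.42.0 was an alternative. Shares were tested by two-sided exact permutation with scipy 1.17.1. Named genes were the 12 largest calls per direction without overlap (Gm-number, Rik, mt-, Rpl, Rps and rule genes left out), up to 4 genes per list by adjusted p, and the 20 leading genes by ratio with 10 CPM added. Genes named outside this rule (Plet1, Lpl, Siglecf, Retnlg, Cd274, Rps18, Camp and those of the fit against comparison neutrophils) were chosen after their values were seen.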

Additional observations from a re-analysis of the deposited data

Results flagged for a closer look

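In biotin negative lung, replicate 3 stood apart from the other 3 samples, since 47.7% of its members were monocyte-rich against 4.39% to 9.72% in the others. It was also the biotin negative lung sample with the fewest members, 151. In 59 checks, each of 1 measure in 1 group of 4 samples, no other sample passed the limit for standing apart. Chance alone was assumed to give about 1 flag in 20 checks, so 1 flag in 59 is no more than chance would give. Without this sample, lung against bone gave 133 called genes with edgeR, 84 higher and 49 lower, in place of 77.

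The tissue difference of 103 genes differed between members and comparison neutrophils by the test of the difference itself, and 5 were called without monocyte-rich cells.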

How the results depend on the processing

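Counts of called genes moved with the processing more than the shares did. Without the low-count filter the biotin contrast gave 65 calls in bone, 49 in brain, 17 in liver, 261 in lung and 291 for the mean over tissues, and the tissue contrasts 120 (brain), 624 (liver) and 316 (lung). DESeq2 gave 2, 0, 0, 2 and 113 for the biotin contrasts, 0 for brain, 377 for liver and 103 for lung. Members with at least 10 UMIs of Il1b gave 10 calls in brain and 722 in liver. Members without Csf1r, Ccr2 and Ly6c2 UMIs gave 3 for biotin in lung and 1, 25 and 30 for the tissues. Leaving out monocyte-rich members gave 27 for biotin in lung, 26 in liver and 22 in lung. Without the 5% of cells with the most UMIs the tissue counts were 84 and 15, and with members thinned to 1000 UMIs they were 36 and 23. Fitting only the 2 groups gave 24 for lung against bone.

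Leaving out each sample gave 0 to 3 calls for biotin in bone, 0 to 58 in lung and 0 in brain, liver and the mean. The tissue counts ran from 0 to 27 for brain, 26 to 701 for liver and 14 to 133 for lung. For liver, leaving out bone replicates 1 to 4 gave 26, 56, 98 and 701, and liver replicates 1 to 4 gave 71, 59, 155 and 51. For lung, leaving out bone replicates gave 17, 20, 49 and 81, and lung replicates 19, 14, 133 and 46. The 27 for brain arose without brain negative replicate 1. The fit against comparison neutrophils gave, for biotin, 143 without a filter and 70 without monocyte-rich cells, and for tissue 366 without a filter, 190 with library size only, 1 in cells without the 3 monocyte genes and 5 without monocyte-rich cells. Of 26 named genes called in liver, 434 of 509 alternative values kept the call, 73 lost it, and Nr4a2 turned from -2.75 to 0.24 without monocyte-rich cells and to 0.25 with the block as well. Of 15 called in lung, 206 of 291 kept it.

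The biotin difference in shares kept its side of the threshold, with exceptions. Brain among gated neutrophils passed with thinned cells (26.5 points, exact p = 0.0286). Liver among gated neutrophils turned to -2.86 points in members without the 3 monocyte genes, and lung to 4.12 with thinned cells. Leaving out 1 sample moved the difference among kept cells from -1.14 to 2.65 points in bone, -7.87 to -0.541 in brain, -4.14 to 5.92 in liver and -13.0 to 0.387 in lung. Among gated neutrophils it moved from 1.03 to 10.2, 13.7 to 26.7, 8.59 to 18.0 and -12.5 to 7.73. For biotin negative tissues against bone, the ranges among kept cells were 6.07 to 13.4 (brain), 10.6 to 18.7 (liver) and 19.3 to 31.7 (lung), and among gated neutrophils 24.0 to 37.0, 34.8 to 44.3 and 52.8 to 66.2. Among kept cells, liver had 15.2 points (exact p = 0.114) with no Acod1 or Ccrl2 required. Lung had 25.0 (exact p = 0.0571) there, 14.6 (0.0571) without the 3 monocyte genes and 22.9 (0.0571) without monocyte-rich cells.

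In lung the biotin comparison was not treated as paired, since 2 of 4 same-numbered pairs correlated over 0.1 and the lowest value was -0.247. Same-numbered libraries, lung included, shared 0 kept barcodes, so the number may mark the same unit there. With a replicate block the lung biotin comparison had 71 calls, and 190 without monocyte-rich cells as well. With a block edgeR called 206 genes for the mean biotin difference and 30, 1099 and 203 for the tissues; without monocyte-rich cells as well, it called 0 and 6, 73 and 112. Paired exact tests of the tissue shares left the differences of 15.1 and 24.4 points among kept cells and 29.9, 39.6 and 58.2 among gated neutrophils at p = 0.125, the smallest that 4 pairs allow; the biotin shares stayed at 0.125 or above. Leaving out any 1 bone sample took liver (0.0857 to 0.114) and lung (0.0571) among kept cells, and brain among gated neutrophils (0.0571), past 0.05 in the exact test. The block ended no call of the named genes in liver or lung. Biotin positive bone and brain had 9 to 111 and 14 to 100 members per sample, which limits the precision there.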
